A study of Mus musculus with 4 samples.

Results

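The genes described here are 42 genes of DNA replication and S phase, chosen by name: 6 of origin licensing, 11 of the replicative helicase, 8 of the polymerases and primase, 7 of the sliding clamp, its loader and strand processing, 4 of deoxynucleotide supply, 3 that encode the E-type cyclins and E2F1, and 3 that act on chromatin at new DNA. All 42 were found on the array under their current symbol or an older one, with 59 of the 41174 gene probes, which carry 27670 gene names. Of these 59 probes, 55 passed the filter on dim probes, and the 4 left out were further probes of Pola2, Pole, Prim2 and Rrm1. Each gene is represented by its brightest probe that passed, and all 42 of these probes were well above background in both channels on all 4 arrays.

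Primary epidermal keratinocytes came from mice labelled Casp-8F/–K5-Cre (F/-) or Casp-8F/+K5-Cre (F/+), both of age P3. Both genotypes carry K5-Cre, a recombinase driven by the keratin 5 promoter of basal keratinocytes, and an F (loxP-flanked) allele of Casp8, the gene of the initiator protease caspase-8. The other allele is null in F/- and wild type in F/+, so the controls carry Cre and the flanked allele too. Cells of 2 mice per genotype were grown in serum-free medium and sampled at passage 1 (early) and passage 3 (late), which gave 8 RNA samples on 4 two-colour arrays, numbered as pair 1 and pair 2 at each passage. F/- RNA was labelled with Cy3 and F/+ RNA with Cy5 on every array, so a dye effect and the genotype cannot be told apart in a ratio. The source name of the Cy5 RNA on both late arrays gives the first passage, whereas title, description and passage entry give passage 3, which was followed. This bears on every statement about passage in F/+. It bears as well on every late ratio, on the shift between passages and on values over both passages, since F/+ RNA is the denominator of each ratio.

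DNA replication starts when the origin recognition complex, with Cdc6 and Cdt1, loads the MCM ring onto DNA in G1, and geminin keeps this from happening again later in the cycle. In S phase Cdc45 and the GINS complex turn the ring into a moving helicase, primase and the polymerases copy both strands behind it, and the clamp PCNA, its loader RFC, Fen1 and Lig1 finish the lagging strand. Most of these genes are transcribed at the border of G1 and S by E2F factors, which the retinoblastoma protein holds back, and in the epidermis the dividing cells lie in the basal layer.

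The letters that E2F factors are known to bind stood in the promoters of many of these genes. In the RefSeq windows of build GRCm38.p6, from 250 bases before to 50 after a transcription start, 35 of the 42 genes had an entry; Gmnn, Mcm4, Gins1, Gins2, Prim2, Pole and Ccne2 had none. The motifs searched were TTTCCCGC, TTTCGCGC, TTTGCCGC and TTTGGCGC on both strands, which can overlap each other, and a match was found for 14 of the 35 genes (40%), compared with 704 of 27025 genes on the whole table (2.6%). The CCAAT box, searched as CCAAT on both strands, was found for 21 of the 35 (60%) and for 41.1% of all genes. The 14 genes were Cdc6, Cdt1, Gins3, Lig1, Mcm3, Mcm5, Mcm6, Mcm7, Orc1, Pola1, Pold1, Pole2, Rfc3 and Uhrf1.

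The stretch of 250 bases before the start is shown for 5 genes with a match there, 4 of licensing and the helicase and the catalytic polymerase alpha subunit gene, and for Rfc4, the gene with the most negative passage change in F/- cultures, which has none. Capitals mark the E2F motif matches. The stretches lie at chr8:75109259-75109508 on the plus strand for Mcm5, chr1:128359706-128359955 on the minus strand for Mcm6 and chr5:138171884-138172133 on the minus strand for Mcm7. They lie at chr11:98907901-98908150 on the plus strand for Cdc6, chrX:93632156-93632405 on the minus strand for Pola1 and chr16:23127731-23127980 on the minus strand for Rfc4, each written 5′ to 3′ towards the start.
Mcm5: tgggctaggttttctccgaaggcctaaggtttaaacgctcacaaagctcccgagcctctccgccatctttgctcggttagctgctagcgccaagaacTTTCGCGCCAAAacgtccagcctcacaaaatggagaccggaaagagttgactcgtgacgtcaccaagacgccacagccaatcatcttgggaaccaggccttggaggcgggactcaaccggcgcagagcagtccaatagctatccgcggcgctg
Mcm6: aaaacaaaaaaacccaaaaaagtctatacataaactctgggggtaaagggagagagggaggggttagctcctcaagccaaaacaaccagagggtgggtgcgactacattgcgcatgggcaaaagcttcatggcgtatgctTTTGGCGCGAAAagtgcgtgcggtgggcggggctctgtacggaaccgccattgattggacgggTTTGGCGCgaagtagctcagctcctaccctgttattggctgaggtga
Mcm7: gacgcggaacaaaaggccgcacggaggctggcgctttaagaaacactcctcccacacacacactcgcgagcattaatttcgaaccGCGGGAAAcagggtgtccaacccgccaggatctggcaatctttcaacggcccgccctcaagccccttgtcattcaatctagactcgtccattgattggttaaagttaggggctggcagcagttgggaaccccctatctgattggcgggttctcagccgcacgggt
Cdc6: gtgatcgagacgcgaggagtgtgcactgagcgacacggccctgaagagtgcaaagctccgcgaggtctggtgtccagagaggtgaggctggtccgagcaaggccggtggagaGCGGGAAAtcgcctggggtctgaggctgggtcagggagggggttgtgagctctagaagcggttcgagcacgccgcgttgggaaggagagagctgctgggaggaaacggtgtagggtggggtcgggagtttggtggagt
Pola1: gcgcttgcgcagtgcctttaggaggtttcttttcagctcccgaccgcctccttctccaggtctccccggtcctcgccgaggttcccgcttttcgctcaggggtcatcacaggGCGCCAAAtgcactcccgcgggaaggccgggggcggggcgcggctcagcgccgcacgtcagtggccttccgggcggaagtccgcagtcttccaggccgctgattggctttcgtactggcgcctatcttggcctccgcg
Rfc4: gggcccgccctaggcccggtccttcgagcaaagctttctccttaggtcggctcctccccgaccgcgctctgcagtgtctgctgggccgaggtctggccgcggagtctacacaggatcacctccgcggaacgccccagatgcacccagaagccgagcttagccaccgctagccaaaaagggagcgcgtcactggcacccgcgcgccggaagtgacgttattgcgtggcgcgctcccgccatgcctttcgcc

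In Mcm5 a match on each strand shares letters in 1 run of capitals, and in Mcm6 such a run stands beside another match nearer to the start. Matches nearer to or past the start, outside the stretches shown, were counted as well, 1 of them in Mcm7. The array values of genes with and without a match lay close together: the median late log2 ratio of F/- over F/+ was -0.39 over the 14 genes with a match and -0.46 over the 21 without, and the median passage change in F/- was -0.68 and -0.69. These are descriptions without a test, and a match is not evidence of binding.

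At passage 1 the replication genes as a group stood near equal in F/- and F/+ cultures. Ratios are given on the log2 scale as F/- over F/+, after background correction and loess normalization within each array, with pair 1 before pair 2. The median over the 42 genes was 0.11 on the array of pair 1 and -0.01 on that of pair 2, and 20 genes read higher and 16 lower on both arrays, beside 33.1% and 34.1% of all probes. This small lean had no fixed direction, since median centring in place of loess gave -0.37 and -0.07, with 9 genes higher and 24 lower on both. In limma's test 0 of the 42 genes had an adjusted p under 0.05, as had 0% of all 35563 probes, and the smallest among the genes was 0.108; at an unadjusted p under 0.05, 7 were higher and 5 lower, beside 12.2% of all probes higher and 8.42% lower.

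At passage 3 nearly the whole group read lower in F/- cultures. The median log2 ratio over the genes was -0.50 in pair 1 and -0.36 in pair 2, 38 genes were below 0 on each array, and 35 of 42 (83.3%) were below 0 on both, beside 34.9% of all probes. The gene means ran from -1.11 for Pola1 to 0.20 for Pola2, and the other genes that were not below 0 on both late arrays were Chaf1a, Fen1, Gins2, Gins3, Pole and Uhrf1. Median centring gave medians of -0.83 and -0.62 with 40 genes below 0 on both, and the scanner software's own ratios gave -0.50 and -0.39 with 36. None of the 42 passed limma's test at passage 3 alone, again as 0% of all probes, with a smallest adjusted p of 0.0790; at an unadjusted p under 0.05, 29 genes were lower and 0 higher, beside 8.49% of all probes lower and 11.5% higher. Fewer cells in S phase and less of these RNAs per cell cannot be told apart in RNA from whole cultures.

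**Figure D1:**
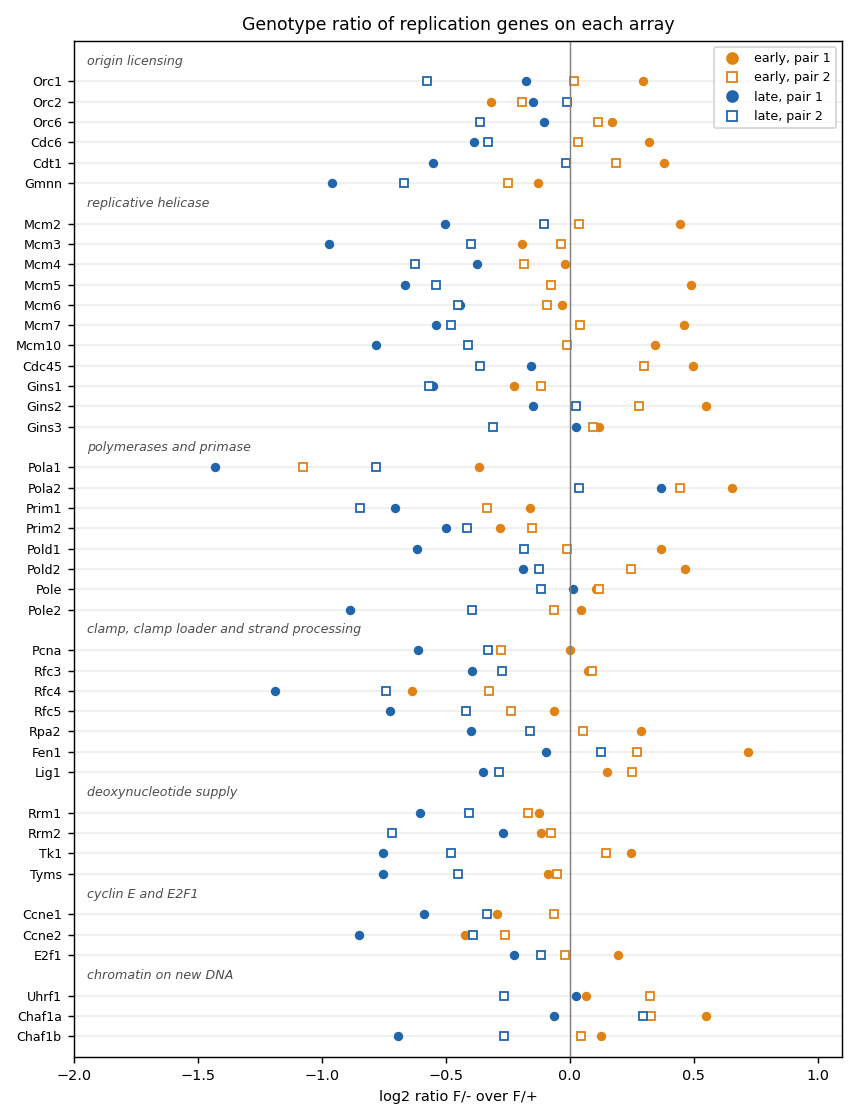
Log2 ratio of F/- over F/+ (x axis) of each of the 42 genes, by role, on the 4 arrays; circles are pair 1 and squares pair 2, orange early and blue late. Early points lie on both sides of 0, and 38 of 42 late points lie below 0 on each late array.

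Over both passages together, 8 of the 42 genes (19.0%) passed limma's test as lower in F/- and 0 as higher, where 2.99% of all 35563 probes passed as lower and 5.85% as higher. On all 4 arrays 16 genes were below 0, beside 19.9% of all probes, and 1 gene, Pola2, was above 0, beside 18.9%. The 8 were Pola1, Prim1 and Prim2 of the primase and its polymerase, Gmnn, Gins1, the clamp loader gene Rfc4, the ribonucleotide reductase gene Rrm1 and Ccne2, with adjusted p between 0.0269 and 0.0485 in limma's test. Across the array 2081 probes were called higher and 1064 lower; with median centring the split turned to 917 higher and 3050 lower, and 22 of the 42 genes were then called lower, beside 8.58% of all probes. No gene of the 42 was called without the early array of pair 1, without that of pair 2, or without the late array of pair 1, where 0% of all probes were called either. Without the late array of pair 2, 10 genes were called lower, beside 4.70% of all probes, and Pola2 higher, 11 in all. The same mice were sampled at both passages, so the mean over 4 arrays treats repeated samples of 2 mice per genotype as separate ones.

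Among the licensing genes all 6 read lower in F/- on both late arrays, with means between -0.82 and -0.08. Gmnn, which encodes the licensing inhibitor geminin, read -0.13 in pair 1 and -0.25 in pair 2 at the early passage and -0.96 and -0.67, in the same order, at the late one. It was below 0 on all 4 arrays, more so late than early, and over both passages it stood at -0.50 with an SE of 0.07 (limma, adjusted p = 0.031). Orc1, the largest subunit of the origin recognition complex, read 0.30 and 0.02 early and -0.18 and -0.58 late. Cdc6, the loader of the MCM ring, read 0.32 and 0.03 early and -0.39 and -0.33 late on its brighter probe, while a dimmer probe read below 0 on all 4 arrays (-0.37 and -0.14 early, -0.69 and -0.40 late). The probes of Cdc6 thus differ on the early arrays and share the direction on the late ones. Cdt1, the partner of Cdc6 in loading, read 0.38 and 0.18 early and -0.55 and -0.02 late, so the late value rests mainly on pair 1. Orc2 was the 1 licensing gene whose late ratios (-0.15 and -0.01) were not lower than its early ones (-0.32 and -0.19).

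Of the 11 helicase genes, 9 were lower on both late arrays, the exceptions being Gins2 and Gins3. Mcm3, a ring subunit, read -0.19 and -0.03 early and -0.97 and -0.40 late on its brighter probe. Its second probe read 0.79 and 0.57 early and 0.00 and -0.03 late, and this probe was called higher in F/- over both passages (limma, adjusted p = 0.046). The probes of Mcm3 so disagree on the sign, and both have lower ratios late than early. Mcm5, another ring subunit, read 0.49 and -0.07 early and -0.67 and -0.54 late. Mcm10, which helps to start the helicase, read 0.34 and -0.01 early and -0.78 and -0.41 late. In both genes the late ratios lay below the early ones. Gins1, a GINS subunit, was below 0 on all 4 arrays on its brighter probe, at -0.22 and -0.12 early and -0.55 and -0.57 late, with a mean of -0.37 and an SE of 0.05 over both passages (limma, adjusted p = 0.032). A dimmer probe of Gins1 read 0.04 and 0.33 early and -0.46 and -0.36 late, so its probes shared the direction on the late arrays. The other ring subunits Mcm2, Mcm4, Mcm6 and Mcm7 had late means between -0.30 and -0.51.

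The polymerase and primase genes held the widest range. Pola1, the catalytic subunit of polymerase alpha, read -0.37 and -1.08 early and -1.43 and -0.78 late, lower in F/- on all 4 arrays but with no order between passages. Its mean over both passages was -0.91 with an SE of 0.16 (limma, adjusted p = 0.042), the most negative of the 42. Pola2, the accessory subunit of the same enzyme, read 0.65 and 0.45 early and 0.37 and 0.04 late, above 0 on all 4 arrays with loess, whereas with median centring the late array of pair 2 read -0.11. A dimmer probe of Pola2 read between -0.11 and 0.14 on the 4 arrays. The catalytic primase subunit gene Prim1 read -0.16 and -0.33 early and -0.71 and -0.85 late, with a mean of -0.51 and an SE of 0.06 (limma, adjusted p = 0.027). Prim2, the large primase subunit gene, read -0.28 and -0.15 early and -0.50 and -0.42 late. Its mean was -0.34 with an SE of 0.06 (limma, adjusted p = 0.039). In both primase genes the 2 late ratios lay below the 2 early ones. Pole2, a subunit of the leading strand polymerase epsilon, read 0.05 and -0.06 early and -0.89 and -0.40 late. Its catalytic partner Pole read 0.10 and 0.12 early and 0.01 and -0.12 late, so subunits of both polymerases differed in size or sign of ratio. Pold1, the catalytic subunit of the lagging strand polymerase delta, read 0.37 and -0.01 early and -0.62 and -0.19 late on its brighter probe. Another probe of like brightness read 0.63 and 0.27, then -0.35 and 0.13, so the late value of Pold1 in pair 2 has no settled sign.

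Of the 7 clamp, loader and strand processing genes, 6 were lower on both late arrays, and Fen1 was not. Rfc4, a clamp loader subunit, read -0.64 and -0.33 early and -1.19 and -0.74 late, with a mean of -0.72 and an SE of 0.10 over both passages (limma, adjusted p = 0.030). Rfc5, another loader subunit, read -0.06 and -0.24 early and -0.72 and -0.42 late. Both loader genes were below 0 on all 4 arrays and lower late than early. Pcna, the clamp itself, read 0.00 and -0.28 early and -0.61 and -0.33 late. Rfc3 read 0.07 and 0.09 early and -0.39 and -0.27 late. Fen1, the flap nuclease of the lagging strand, read 0.72 and 0.27 early and -0.10 and 0.13 late, so its late mean of 0.01 lay well within the SD of 0.16 between arrays.

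All 4 genes of deoxynucleotide supply were lower in F/- on both late arrays. Tk1, thymidine kinase, read 0.25 and 0.15 early and -0.75 and -0.48 late, and its shift between passages of -0.81 was the most negative of the 42. Tyms, thymidylate synthase, read -0.09 and -0.05 early and -0.76 and -0.45 late; a second bright probe read -0.65 and -0.52 late, and a much dimmer probe read 0.03 and 0.10. The salvage enzyme gene and the synthesis enzyme gene thus had late ratios of like size on their bright probes. The large ribonucleotide reductase subunit gene Rrm1 read -0.13 and -0.17 early and -0.60 and -0.41 late. Its mean was -0.33 with an SE of 0.06 over both passages (limma, adjusted p = 0.045). Rrm2, its small subunit gene, read -0.11 and -0.08 early and -0.27 and -0.72 late.

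The E-type cyclin genes were lower in F/- on all 4 arrays on their brighter probes. Ccne2 read -0.42 and -0.26 early and -0.85 and -0.39 late (mean over both passages -0.48, SE 0.09; limma, adjusted p = 0.048), and Ccne1 read -0.29 and -0.07 early and -0.59 and -0.34 late. E2f1, the transcription factor gene, had probes of opposite sign: the brighter read 0.19 and -0.02 early and -0.23 and -0.12 late, the dimmer 0.89 and 0.62 early and 0.46 and 0.68 late. The dimmer probe was called higher in F/- over both passages (limma, adjusted p = 0.026), so the array gives no single direction for E2f1. Of the chromatin genes, Chaf1b, a subunit of the histone chaperone CAF-1, read 0.12 and 0.04 early and -0.69 and -0.27 late. Chaf1a, its partner, read 0.55 and 0.33 early and -0.06 and 0.30 late, and Uhrf1, which helps to copy DNA methylation, read 0.06 and 0.32 early and 0.02 and -0.26 late. Their late values had no shared direction between arrays.

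Between passages the ratio shifted down in nearly every gene. Late minus early was below 0 for 41 of 42 genes, with a median of -0.46. It was below 0 in both pairs for 40 genes (95.2%), beside 26.3% of all probes, and in 39 genes (92.9%) both late ratios lay below both early ones, compared with 18.2% of all probes. The exceptions were Ccne2, Orc2 and Pola1. This count was 32 with median centring and 39 with the scanner software's ratios, and the median shift was -0.48 and -0.45. In limma's test of the shift 0 of the 42 genes had an adjusted p under 0.05, as had 0% of all probes (smallest among the genes 0.820); at an unadjusted p under 0.05, 26 genes were lower and 0 higher, beside 3.34% of all probes lower and 2.49% higher.

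The shift can be read from each genotype's own channel, where a change with passage is within 1 dye. In F/- cultures the median change from passage 1 to passage 3, in log2 intensity, was -0.83 in pair 1 and -0.51 in pair 2, and 35 of 42 genes (83.3%) had a negative change in both pairs, beside 35.2% of all probes. In F/+ cultures it was -0.19 and -0.24, and 19 genes (45.2%) had a negative change in both pairs, beside 31.7%. The direction was the same with median centring. Both changes come from the same arrays, so they share what varies from array to array.

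In F/- 8 of the 42 genes (19.0%) fell with passage in limma's separate-channel test and 0 rose, where 2.22% of 35464 probes fell and 2.89% rose: Rfc4, Mcm5, Cdt1, Mcm10, Chaf1b, Cdc45, Tyms and Lig1, with adjusted p between 0.0265 and 0.0481; at an unadjusted p under 0.05, 27 were lower, beside 9.51% of all probes. With the pair as a block 3 genes fell (Mcm3, Cdc45 and Rfc4), beside 1.81% of all probes. No gene passed without the early array of pair 1 or without that of pair 2, where 0.203% and 0.296% of all probes fell. In F/+ 0 of the 42 passed in this limma test, where 2.42% of all probes fell and 3.23% rose (smallest adjusted p among the genes 0.0916); at an unadjusted p under 0.05, 2 were lower and 1 higher, beside 9.38% of all probes lower and 11.6% higher. Without the late array of pair 1, 3 genes (7.14%: Cdt1, Pold1 and Chaf1a) fell in F/+, near the 5.78% of all probes that fell in that fit. Passing in F/- and not in F/+ does not show that the genotypes differ: the difference between the changes was tested as the shift above, where no gene passed.

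**Figure D2:**
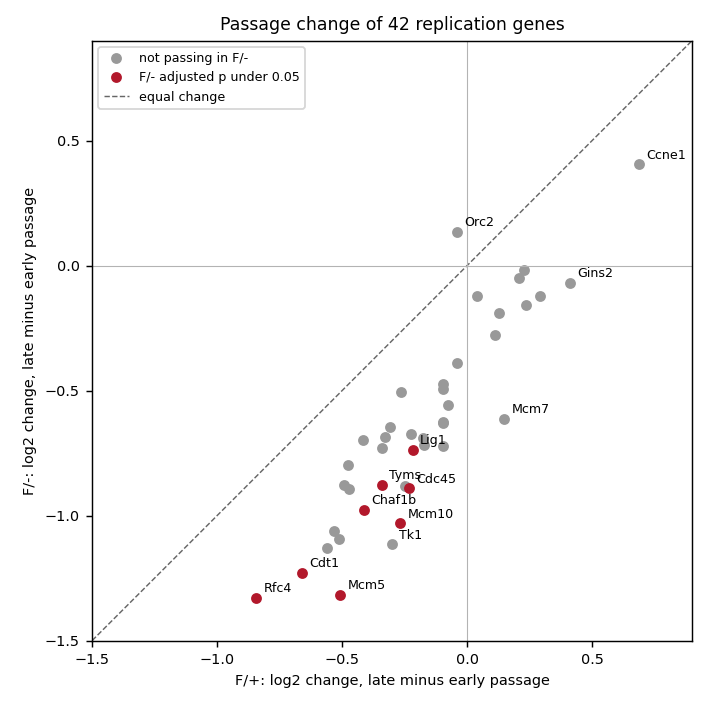
Log2 change from passage 1 to passage 3 of the 42 genes in F/- (y axis) against F/+ (x axis), each point the mean of 2 pairs; red points had an adjusted p under 0.05 in F/-, and the dashed line marks an equal change. All genes except Orc2 lie below the line, and the axes share arrays.

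Rfc4 read 12.08 and 12.06 in F/- at passage 1 and 10.59 and 10.89 at passage 3 (log2 intensity, pairs 1 and 2), a change of -1.33 with an SE of 0.24 (limma, adjusted p = 0.027). In F/+ it read 12.71 and 12.39 at passage 1 and 11.78 and 11.64 at passage 3, a change of -0.84 that did not pass (limma, adjusted p = 0.099). Rfc4 was thus lower at passage 3 in all 4 cultures. Mcm5 read 13.59 and 13.33 in F/- at passage 1 and 12.21 and 12.07 at passage 3, a change of -1.32 with an SE of 0.25 (limma, adjusted p = 0.031), beside 13.10 and 13.41, then 12.88 and 12.61, in F/+. Cdt1 read 13.87 and 13.80 in F/-, then 12.54 and 12.68, a change of -1.23 with an SE of 0.25 (limma, adjusted p = 0.036), beside 13.49 and 13.62, then 13.09 and 12.70, in F/+. In pair 1 both genes were higher in F/- than in F/+ at passage 1 and lower at passage 3; in pair 2 the genotypes lay closer together for both.

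Cdc45, which joins the MCM ring to make the helicase, read 9.84 and 9.80 in F/- at passage 1 and 8.96 and 8.90 at passage 3, a change of -0.89 with an SE of 0.17 (limma, adjusted p = 0.029). In F/+ it read 9.34 and 9.50, then 9.12 and 9.27, so the F/- cultures were above both F/+ cultures at passage 1 and below both at passage 3. Its log2 ratios were 0.50 and 0.30 early and -0.16 and -0.36 late. Lig1, the ligase that joins lagging strand fragments, read 13.49 and 13.43 in F/-, then 12.63 and 12.82, a change of -0.74 with an SE of 0.15 (limma, adjusted p = 0.036), beside 13.34 and 13.18, then 12.98 and 13.11, in F/+. Its levels crossed in the same way with loess, whereas with median centring its early ratio in pair 1 was -0.44. Tyms, Mcm10 and Chaf1b changed by -0.88, -1.03 and -0.98 in F/-, and by -0.34, -0.27 and -0.41 in F/+ without passing there.

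Tk1, Ccne1 and Gmnn did not pass this limma test in either genotype, and of these only Ccne1 had positive changes in F/-. Tk1 read 13.36 and 13.37 in F/- at passage 1 and 12.52 and 11.98 at passage 3, a change of -1.11 just short of the threshold (limma, adjusted p = 0.053), while in F/+ pair 1 it read 13.11 and then 13.28 and in pair 2 13.22 and then 12.46. The F/+ pairs thus moved apart. Ccne1 had positive changes in all cultures, 0.25 and 0.56 in F/- and 0.55 and 0.83 in F/+, where the mean of 0.69 did not pass (limma, adjusted p = 0.092). Gmnn read 14.54 and 14.32 in F/-, then 13.54 and 13.87, while in F/+ it read 14.66 and 14.56, then 14.50 and 14.54. Neither change of Gmnn passed limma's test, with an adjusted p of 0.076 in F/- and 0.798 in F/+.

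**Figure D3:**
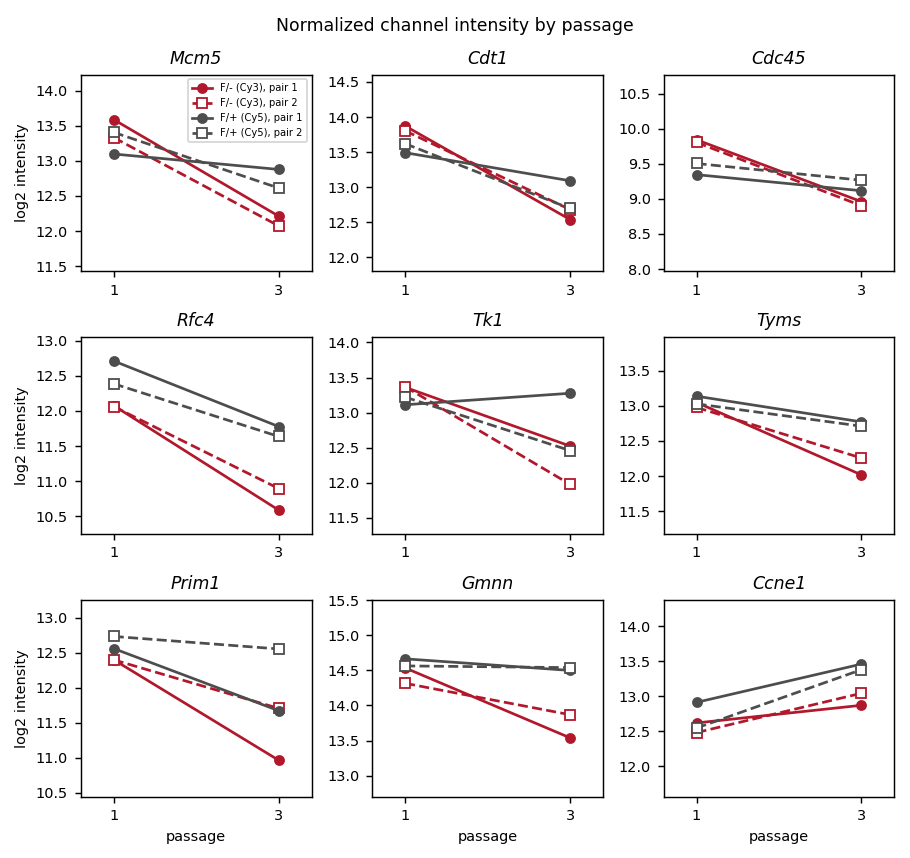
Normalized log2 intensity (y axis) of 9 genes at passages 1 and 3 (x axis) in F/- (red) and F/+ (grey), with pair 1 solid and pair 2 dashed; all panels span the same height. Cdc45 lies above both F/+ cultures at passage 1 and below both at passage 3 in F/-, and Ccne1 has a positive change in all cultures.

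By role, the median change in F/- was -0.63 for licensing, -0.72 for the helicase, -0.78 for the polymerases and primase, -0.68 for the clamp and strand processing genes, -0.78 for deoxynucleotide supply and -0.80 for the chromatin genes, against -0.05 for the cyclin E and E2F1 group. The same medians in F/+ were -0.10, -0.17, -0.26, -0.23, -0.31, -0.41 and 0.21. Each role had its median nearer to 0 or above it in F/+.

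Other genes of the cell cycle, listed by pathway, were read beside these. Of 38 further replication and repair genes, 29 (76.3%) were lower on both late arrays (median late ratio -0.26), beside 34.9% of all probes. In limma's test over both passages 7 were called lower and 0 higher, beside 2.99% and 5.85% of all probes. Rpa3, a subunit of the single strand binding complex, had a late log2 ratio of -0.83 ± 0.034 (SD, n = 2). Of 30 mitosis genes, 28 (93.3%) were lower on both late arrays (median -0.54), beside the same 34.9%. Over both passages 8 were called lower and 0 higher, beside the same 2.99% and 5.85%. With passage 4 fell in F/- and 1 in F/+, beside 2.22% and 2.42% of all probes. Ccna2, cyclin A, stood at -1.02 ± 0.26, Birc5, survivin, at -0.99 ± 0.39 and Cdc20, an activator of the anaphase promoting complex, at -0.96 ± 0.43. The replication genes thus shared the direction of their late ratios with the mitosis genes.

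The 28 other genes of the E2F, Rb and G1 cyclin list had no such common direction. Their median late ratio was -0.02. On both late arrays 11 (39.3%) were lower, near the 34.9% of all probes, and 6 were higher, where 11054 of 35563 probes were. Over both passages 3 were called lower (E2f2, E2f7 and Cdkn1b) and 4 higher (Tfdp1, Ccnd3, Cdk2 and Cdkn2b), beside 2.99% and 5.85% of all probes. E2f7, a repressor of the E2F family, had a late ratio of -1.08 ± 0.33 (SD, n = 2), E2f2 -0.94 ± 0.40 and Cdkn1b, the inhibitor p27, -0.59 ± 0.34. With passage in F/-, E2f7 fell and Tfdp2 and Cdkn2a rose, and in F/+ Tfdp2 and Cdkn2a rose. Cdkn2a, the locus of the inhibitors p16 and Arf, changed by 3.32 in F/- and 3.24 in F/+ (limma, adjusted p = 0.0018 and 0.0019), and its genotype ratio stayed between -0.19 and 0.33 on the 4 arrays.

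**Figure D4:**
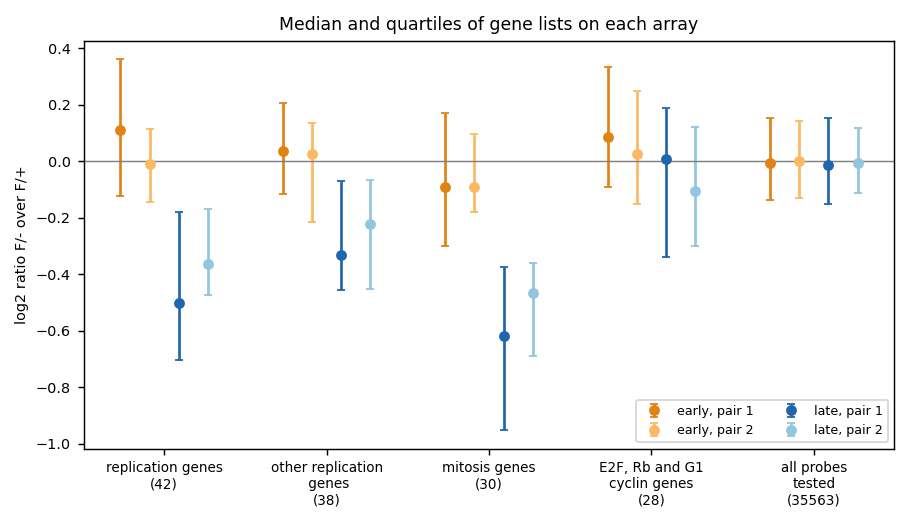
Median log2 ratio of F/- over F/+ (y axis) of 4 gene lists and of all probes on each of the 4 arrays, with bars from the lower to the upper quartile over genes or probes, not an error of the median. The late medians of the replication and mitosis lists lie below 0 on both arrays, and those of all probes lie near 0.

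Markers of other cells moved with genotype and passage too, and their part in the result was not tested. All 13 keratinocyte markers were well above background in all channels. Their summed normalized intensity was 618321 to 666361 in F/- early, 566187 to 582540 in F/- late, 739015 to 836042 in F/+ early and 777755 to 783602 in F/+ late. Over both passages 8 of 13 had a mean ratio below 0, and the means ran from -0.66 to 0.29. Of the 13, 5 were called lower in F/- and 0 higher, beside 2.99% and 5.85% of all probes. On both late arrays 7 (53.8%) were lower, beside 34.9% of all probes, and 3 were higher. Of 13 fibroblast markers, all above background and none at 0, 11 were higher in F/- on both late arrays, where 11054 of 35563 probes were. The median ratio of these 13 was 1.32 in pair 1 and 0.32 in pair 2 at the late passage. Their sum was 4111 to 4303 in F/- early and 10472 to 13221 late, and 2956 to 4292 in F/+ early and 5392 to 7509 late. Of 15 macrophage and leukocyte markers measured, 10 were higher in F/- on both late arrays, beside the same 11054 of 35563 probes. The sum of the 15 was 29409 to 40353 in F/- early, 10829 to 16197 in F/- late, 24764 to 27765 in F/+ early and 4925 to 5063 in F/+ late. The 8 melanocyte markers summed to 69199 to 72240 in F/- early and 26161 to 26491 late, and to 72105 to 85400 and 24382 to 27824 in F/+. At the late passage pair 1 had the median further from 0, above it for the fibroblast markers and below it for the replication genes. At the early passage the fibroblast medians were 0.60 in pair 1 and 0.05 in pair 2. Those of the replication genes were 0.11 and -0.01. A link between these lists was not tested.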

How the data were processed

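The submitters' processing notes name Agilent Feature Extraction 9.1.3.1; the deposited files hold raw intensity and local background per spot and channel, and the authors' processed log10 ratio. The value table deposited by the authors holds the same log10 ratio with its sign turned, F/- over F/+ (largest gap 4.96e-06), so its direction is known. From the raw intensities, normexp (offset 50) and within-array loess were run with limma 3.58.1 under R 4.3.3, giving control and outlier spots no weight.

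Of 41174 gene probes, 35563 were kept: a channel had to exceed background clearly on 2 or more arrays. Ratios were fitted with passage as the group (2 residual and 2.81 prior degrees of freedom); channels were fitted after Aquantile on 35464 probes measured in all 8 channels (spot correlation 0.741). Tests were two-sided, p-values were adjusted by Benjamini-Hochberg over all probes, and the threshold was 0.05. The fits were tested on simulated data. Per channel 75.8% to 87.9% of gene spots exceeded background clearly and none was saturated; the number of arrays limits the precision. All 4 arrays share 1 slide and scan.

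The same mice were sampled at both passages, per the series' design text, so pair numbers pair the arrays; across probes the deviations of same-numbered arrays correlated at -0.00047 for ratios, 0.25 for F/- and 0.030 for F/+ channels. Values on every array are given, per role, for up to 4 genes with the largest late ratio, for called genes and for genes whose probes differ in sign; other lists give up to 3 genes with the largest late ratio of 1 sign. Some results of those lists are not reported here. Fen1, Pole, Orc2 and Cdkn2a were added after their values were seen, to illustrate an exception. The genes and lists were chosen with earlier results of these data known. Alternatives covered background correction, normalization, filters, probe choice, the pair as a block, each array left out, 1 dye at a time and the scanner's values.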

Additional observations from a re-analysis of the deposited data

Results flagged for a closer look

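In 13 genes both early ratios were above 0 and both late ratios below 0. All samples of a passage so lay on 1 side and those of the other passage on the opposite side. The share of all probes that crossed 0 in this way was not counted. Such probes are part of the 18.2% of all probes in which both late ratios lay below both early ones. The log2 shift, late minus early, was -0.53 for Orc1, -0.38 for Orc6, -0.53 for Cdc6 and -0.57 for Cdt1 among the licensing genes. It was -0.54 for Mcm2, -0.76 for Mcm7 and -0.66 for Cdc45 of the helicase, -0.51 for Pold2, -0.41 for Rfc3, -0.45 for Rpa2 and -0.52 for Lig1. Tk1 had -0.81 and Chaf1b -0.56. The dimmer probe of Cdc6 read below 0 on all 4 arrays, so the crossing of Cdc6 holds on its brighter probe only. In limma's test of this shift none of the 13 passed, with adjusted p between 0.820 and 0.859. At an unadjusted p under 0.05 all the 42 genes gave 26 lower and 0 higher, beside 3.34% and 2.49% of all probes. With median centring 5 of the 13 still crossed 0 in this way (Orc1, Cdc6, Mcm2, Cdc45 and Pold2), and with the scanner software's ratios 12.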

How the results depend on the processing

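In the alternative runs no called gene had the opposite direction to its value in the main fit. Second probes of Mcm3 and E2f1, taken alone, were called higher over both passages, whereas the brighter probes of both genes had means below 0. Values that were not called did change sign: with median centring 13 early values and 5 over both passages did. With median centring of each array the median ratio of the 42 genes moved to -0.17 early and -0.73 late. In that setting 22 genes (52.4%) were called lower over both passages, beside 8.58% of all probes. With the scanner software's processed values 3 genes (7.14%) were called lower over both passages, beside 1.65% of all probes. In that setting 1 gene (2.38%) fell with passage in F/-, near the 1.97% of all probes that fell. The median passage change in F/+ was then -0.26. With a background offset of 0, 3 genes (7.14%) fell with passage in F/-, beside 2.69% of all probes. With the pair as a replicate block 3 genes (7.14%) fell with passage in F/-, beside 1.81% of all probes. Of these, 2 (Cdc45 and Rfc4) were among the 8 named for that change. Over both passages 6 genes (14.3%) were then called lower, all among the 8 named there, beside 3.21% of all probes. Only Pola2 was called higher, beside 5.91% of all probes. The block left the other counts of adjusted calls at 0. The block and the fits without an array used the spot correlation of all arrays. With the mean of all probes of a gene the median change in F/+ was -0.18. Leaving out each array in turn gave 0 to 11 calls over both passages, 0 to 8 with passage in F/- and 0 to 3 in F/+, and medians of -0.011 to 0.11 early and -0.24 to -0.15 for the change in F/+. Where an array was left out, the lone array of its passage was assumed to vary like the others. The late median stayed below 0 in every alternative run, between -0.73 and -0.36, as did the median shift, between -0.55 and -0.39. The causes were not tested.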
